A study of Mus musculus with 56 samples.

Results

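The pericentral liver genes that depend on Wnt signalling and were followed across the treatments are Axin2, Lgr5, Rnf43, Znrf3, Tbx3, Glul, Oat, Slc1a2, Rhbg and Cyp2e1. They were chosen by gene symbol from what is known of liver zonation, with earlier results of these data known, and are 10 of 45513 genes listed. All 10 were among the 14314 genes that passed the filter on low counts. Liver mRNA was sequenced from 56 female APOE*3Leiden.CETP mice, 8 in each of 7 groups. These mice carry human APOE*3-Leiden and CETP transgenes as a model of human-like lipoprotein metabolism, entered the study at 9 to 14 weeks of age, and all ate a Western-type diet with 15% cacao butter and 0.15% cholesterol. Control mice were gavaged with the carboxymethyl cellulose vehicle. Nilotinib was gavaged once daily at 10 or 30 mg/kg and ponatinib once daily at 3 or 10 mg/kg, each with a further gavage of vehicle, and imatinib was gavaged at 150 mg/kg 2 times per day. The 3 drugs inhibit the BCR-ABL1 tyrosine kinase of chronic myeloid leukaemia, and nilotinib was derived from the structure of imatinib. The seventh group received the vehicle by gavage and L-NAME, an inhibitor of nitric oxide synthases, at 0.12 to 0.20% in the drinking water.

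Blood crosses the liver lobule from the portal tracts to the central vein, and hepatocytes along this path carry out different tasks. Endothelial cells around the central vein secrete Wnt ligands and R-spondin 3, which stabilise beta-catenin in the neighbouring hepatocytes and switch on a pericentral set of genes. Some of that set are parts of the pathway itself, while others detoxify ammonia, glutamate and foreign compounds.

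Between 5342379 and 17996732 reads were counted on genes in 55 of the mice. The remaining library, L-NAME replicate 2, held 97473341 reads and also had the largest share of uniquely aligned reads outside annotated genes, 16.8%. This share was 7.97% ± 0.42 in control mice, 8.53% ± 0.61 at the low dose of ponatinib and 11.0% ± 2.0 at the high dose (SD, n = 8 each). It was 9.75% ± 0.69 and 10.5% ± 1.4 at the low and high dose of nilotinib, 10.0% ± 1.8 in imatinib mice and 11.0% ± 2.4 in L-NAME mice (SD, n = 8 each). No sequencing batch is given in the labels.

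Levels are given in CPM, which scale the counts of a gene to the size of its library, here after TMM correction. Per kilobase of exon, the median over all 56 mice was highest for Cyp2e1, at 3811 CPM per kb, followed by Oat at 584 and Glul at 424. Slc1a2 reached 16.8 CPM per kb, Tbx3 8.91 and Rnf43 7.24. Axin2, Znrf3, Rhbg and Lgr5 were the lowest, with Axin2 at 2.56 CPM per kb and Lgr5 at 1.23. The P450 and both enzymes of ammonia and ornithine metabolism were the 3 highest, and the ammonium transporter Rhbg, at 1.53 CPM per kb, lay among the receptor and feedback genes at the lower end. Rhbg had between 0 and 354 reads in a library, Lgr5 between 43 and 1123, and Glul between 7400 and 88050.

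**Figure D1:**
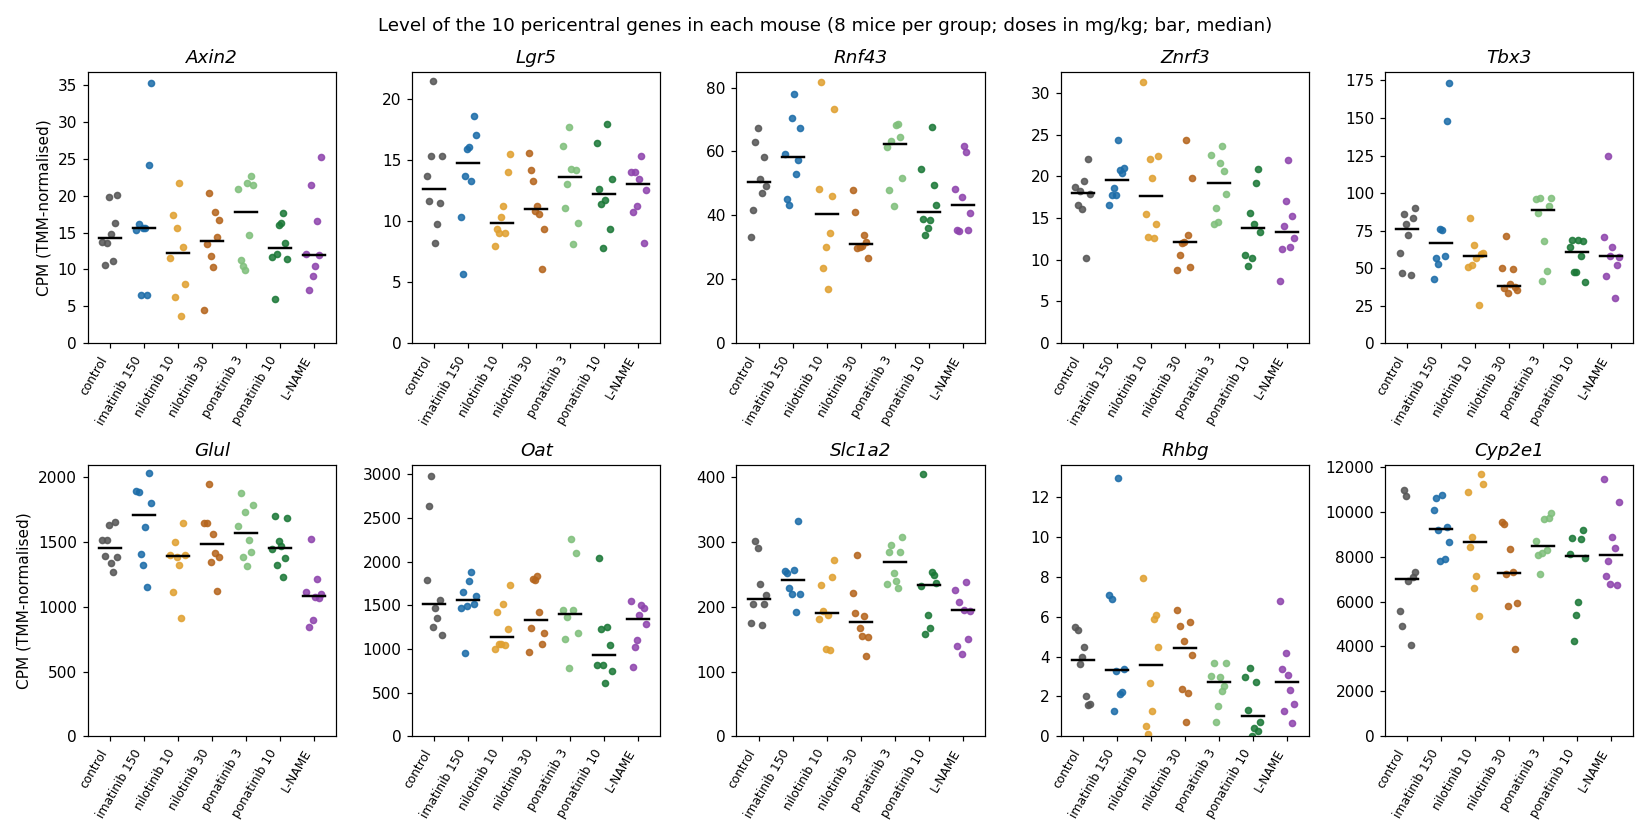
Level of each gene in every mouse (points, 8 per group) in TMM-normalised CPM on linear axes that start at 0, with the group median as a bar. Glul was lowest with L-NAME (median 1084 CPM) and Oat with ponatinib 10 mg/kg (median 933 CPM), while Tbx3 and Rnf43 were lowest with nilotinib 30 mg/kg (medians 38.2 and 30.9 CPM), and in none of the 10 genes did a treated group lie clear of control, where 0.105% to 2.57% of all tested genes did.

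Each treated group was compared with control by edgeR's quasi-likelihood test in a single fit of all mice, and a gene was called at a Benjamini-Hochberg adjusted p below 0.05 over the 14314 genes. Of the 60 comparisons of a gene with control, 2 were called. Glul fell with L-NAME and Oat fell with ponatinib 10 mg/kg. In 0 of the 60 comparisons were the groups free of overlap, as they were for 1.14% of all tested genes with imatinib, 0.65% and 1.73% with nilotinib 10 and 30 mg/kg, 0.105% and 0.957% with ponatinib 3 and 10 mg/kg and 2.57% with L-NAME. In whole liver, fewer cells of a type and less RNA per cell cannot be told apart. With imatinib 0 of the 10 genes were called, where 10.3% of all tested genes were. With nilotinib 10 mg/kg it was 0 of 10 against 1.41% of all genes, with nilotinib 30 mg/kg 0 of 10 against 5.77%, and with ponatinib 3 mg/kg 0 of 10 against 0.0419%. At the higher dose of ponatinib 1 of the 10 was called against 13.1% of all genes, and with L-NAME 1 of 10 against 11.8%. No share of the 10 genes was read as different from that of all genes.

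At the looser cut-off of an unadjusted p below 0.01, nilotinib 30 mg/kg had 2 of the 10 genes, Rnf43 and Tbx3, beside 9.35% of all genes. Ponatinib 10 mg/kg had 1, Oat, beside 15% of all genes, and L-NAME had 1, Glul, beside 14%. Imatinib, nilotinib 10 mg/kg and ponatinib 3 mg/kg had 0, beside 12.9%, 5.97% and 3.14% of all genes. An unadjusted p below 0.05 was reached by 1 of the 10 genes with imatinib, beside 23.5% of all genes, by 1 and 2 with nilotinib 10 and 30 mg/kg, beside 14.2% and 18.7%, by 0 and 2 with ponatinib 3 and 10 mg/kg, beside 9.96% and 25.8%, and by 2 with L-NAME, beside 24.2%. The median log2 fold change of the 10 genes was 0.18 with imatinib and 0.13 with ponatinib 3 mg/kg, against -0.02 and -0.01 for all genes. It was -0.20 with nilotinib 10 mg/kg, -0.26 with nilotinib 30 mg/kg, -0.19 with ponatinib 10 mg/kg and -0.22 with L-NAME, against 0.01, 0.03, -0.01 and 0.02 for all genes.

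**Figure D2:**
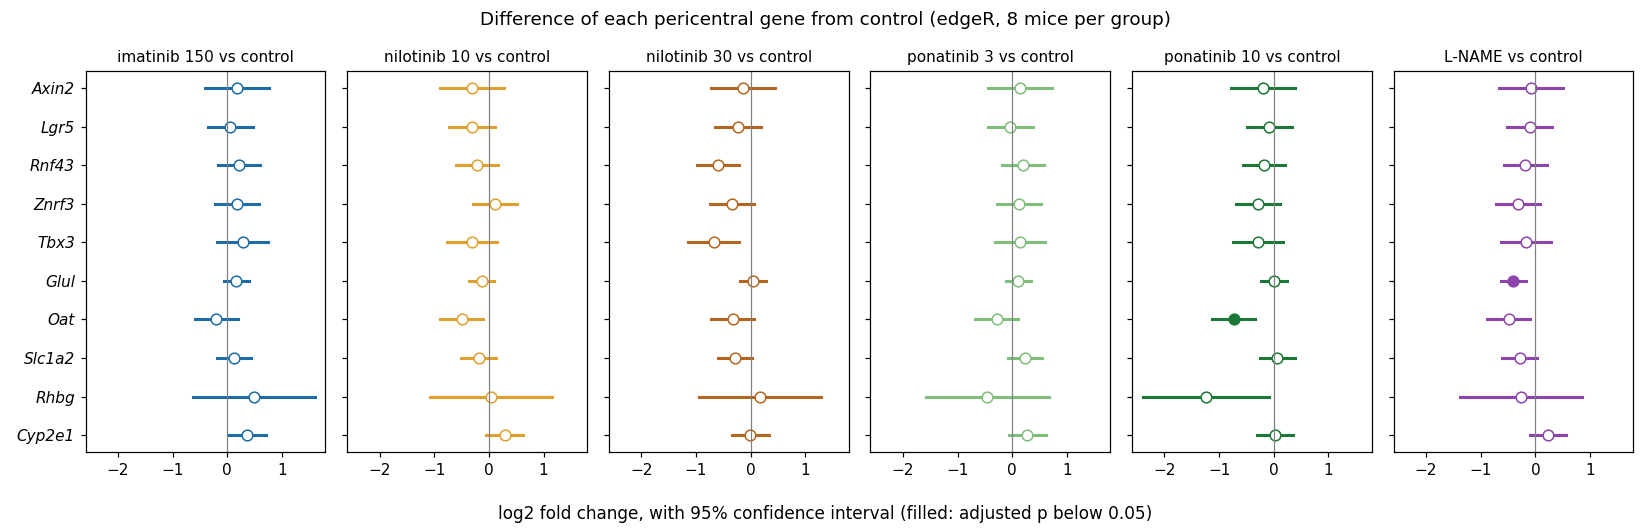
Log2 fold change of each gene against control (point) with its 95% confidence interval (line) in the 6 treated groups, from edgeR. Filled points, Oat with ponatinib 10 mg/kg (-0.73) and Glul with L-NAME (-0.41), have an adjusted p below 0.05, and Rhbg has the widest intervals.

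Glul encodes glutamine synthetase, which fixes ammonia into glutamine in the hepatocytes that border the central vein (GRCm38, chromosome 1, 153899944 to 153909723, plus strand). In control mice it ranged from 1266 to 1656 CPM with a median of 1452. With L-NAME it ranged from 844 to 1519 CPM with a median of 1084, and 7 of the 8 mice lay below every control mouse. Glul fell with L-NAME by 0.41 on the log2 scale (SE 0.12, 95% interval -0.64 to -0.18, edgeR adjusted p = 0.0128). The 1 L-NAME mouse above the control median was replicate 3, and without it the change was -0.49. Without the deep L-NAME replicate 2 the change was -0.36 (edgeR adjusted p = 0.0385).

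Glul was also the one gene of the 10 whose level followed the share of reads outside genes. After subtraction of the group means, Pearson's r between Glul and this share was -0.45 over 56 mice (adjusted permutation p = 0.0178 over 10 genes) and Spearman's rho was -0.42 (adjusted permutation p = 0.0263). With the 2 mice most distant in that share left out, r was -0.39. With that share as a covariate the L-NAME change of Glul was -0.21 and was no longer called (edgeR adjusted p = 0.456). The share was between 8.81% and 16.8% in L-NAME mice and between 7.55% and 8.67% in control mice. These ranges do not overlap, so share and treatment cannot be told apart.

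In the other groups no change of Glul passed the test. The range was 1154 to 2033 CPM with imatinib (median 1711), 1318 to 1878 with ponatinib 3 mg/kg (median 1568) and 1232 to 1701 with ponatinib 10 mg/kg (median 1456). With the low dose of nilotinib it was 909 to 1644 (median 1389) and with the high dose 1122 to 1945 (median 1487). All 5 of these groups overlapped control, although 4 of the 8 imatinib mice and 3 of the 8 given ponatinib 3 mg/kg lay above every control mouse, and 1 imatinib mouse lay below every control mouse. With ponatinib 10 mg/kg the 95% interval of the log2 change ran from -0.23 to 0.23, a fold of 0.855 to 1.18. Glul shares 116 exonic bases with Teddm2 on the opposite strand and 93 with Mir8114, and it has a processed pseudogene, Glns-ps1, described with the correlations.

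Oat encodes ornithine aminotransferase, which turns ornithine into glutamate semialdehyde and is enriched in pericentral hepatocytes (chromosome 7, 132557478 to 132576398, minus strand). Control mice ranged from 1165 to 2987 CPM with a median of 1516. With ponatinib 10 mg/kg the range was 609 to 2046 CPM with a median of 933, and 5 of the 8 mice lay below every control mouse. One mouse of that group, replicate 2, was far above the other 7. Oat fell with ponatinib 10 mg/kg by 0.73 on the log2 scale (SE 0.20, 95% interval -1.13 to -0.34, edgeR adjusted p = 0.00835). Without replicate 2 the change was -0.93 (edgeR adjusted p = 0.000499), and without control replicate 3 it was -0.58 (edgeR adjusted p = 0.0345). With the share of reads outside genes as a covariate it was -0.66 and was no longer called (edgeR adjusted p = 0.103). The share was 8.89% to 15.2% with ponatinib 10 mg/kg and 7.55% to 8.67% in control mice, so share and treatment cannot be told apart. Within groups the level of Oat had an r of -0.09 with that share.

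The median of Oat was below the control median in each of 4 other groups, and none of these differences passed the test. With nilotinib 10 mg/kg Oat ranged from 1005 to 1735 CPM (median 1143, log2 change -0.50, edgeR adjusted p = 0.201). With L-NAME it ranged from 795 to 1548 CPM (median 1341, log2 change -0.49, edgeR adjusted p = 0.0968). Nilotinib 30 mg/kg gave 971 to 1839 CPM (median 1335) and ponatinib 3 mg/kg gave 778 to 2255 (median 1404). With imatinib the range was 952 to 1887 CPM and the median, 1564, was the highest of the 7 groups. The mean with imatinib was 1544 CPM against 1777 in control mice, and the log2 change was -0.20 (edgeR adjusted p = 0.596).

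Tbx3, a T-box transcription factor that beta-catenin induces in liver (chromosome 5, 119670669 to 119684724, plus strand), ranged from 45.7 to 89.9 CPM in control mice with a median of 75.9. With nilotinib 30 mg/kg it ranged from 33.7 to 71.6 CPM with a median of 38.2. All 8 of these mice lay below the control median and 5 below every control mouse. The log2 change was -0.68 (SE 0.23, 95% interval -1.14 to -0.21) and missed the threshold (edgeR adjusted p = 0.0698). With imatinib Tbx3 was widely spread, from 42.9 to 173 CPM (median 66.7). In that group 2 mice were above every control mouse. The medians were 58.1 CPM with nilotinib 10 mg/kg (25.5 to 83.1), 88.9 with ponatinib 3 mg/kg (41.7 to 96.7), 60.9 with ponatinib 10 mg/kg (40.6 to 68.9) and 58.1 with L-NAME (29.8 to 124). Tbx3 shares 115 exonic bases with the antisense gene Tbx3os1, and strand was not stated for the counting.

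Rnf43 encodes a membrane ubiquitin ligase that removes Wnt receptors from the cell surface and is itself induced by the pathway (chromosome 11, 87662722 to 87735539, plus strand). It ranged from 33.3 to 67.2 CPM in control mice (median 50.3) and from 26.6 to 48.0 with nilotinib 30 mg/kg (median 30.9). As for Tbx3, all 8 mice given nilotinib 30 mg/kg lay below the control median and 5 below every control mouse. The log2 change was -0.60 (SE 0.19, 95% interval -0.99 to -0.21) and missed the threshold narrowly (edgeR adjusted p = 0.0519). Both genes passed it under DESeq2's Wald test, with adjusted p of 0.0318 for Rnf43 and 0.0372 for Tbx3. They also passed when only the nilotinib 30 mg/kg and control mice were fitted in edgeR, with adjusted p of 0.0130 and 0.0157. Neither passed it under limma voom (adjusted p = 0.0711 for Rnf43 and 0.0768 for Tbx3), DESeq2's size factors (0.0583 and 0.0713), library size alone (0.0702 and 0.0778) or without the filter on low counts (0.0597 and 0.0749). With the share of reads outside genes as a covariate the log2 change was -0.64 for Rnf43 (edgeR adjusted p = 0.151) and -0.45 for Tbx3 (edgeR adjusted p = 0.513). That share was 9.41% to 12.7% with nilotinib 30 mg/kg and 7.55% to 8.67% in control mice, so share and treatment cannot be told apart. In the other groups Rnf43 ranged from 43.1 to 77.8 CPM with imatinib (median 58.4), from 16.9 to 81.7 with nilotinib 10 mg/kg (median 40.3) and from 43.0 to 68.7 with ponatinib 3 mg/kg (median 62.4). At the higher dose of ponatinib it was 33.9 to 67.6 CPM (median 41.2) and with L-NAME 35.2 to 61.6 (median 43.4).

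Imatinib and nilotinib 30 mg/kg were also compared directly, at doses that differ. Tbx3 was higher with imatinib by 0.96 on the log2 scale (SE 0.23, 95% interval 0.49 to 1.42, edgeR adjusted p = 0.00931), and all 8 imatinib mice lay above the nilotinib median. Rnf43 was higher by 0.81 (SE 0.19, 95% interval 0.42 to 1.20, edgeR adjusted p = 0.00874), with 6 of 8 imatinib mice above every mouse given nilotinib 30 mg/kg. These were the 2 of 10 genes called in this comparison, where 3.59% of all tested genes were called, and 7.55% had an unadjusted p below 0.01. Znrf3 had a log2 difference of 0.52, Slc1a2 of 0.40 and Cyp2e1 of 0.37, none of them past the threshold (edgeR adjusted p = 0.150, 0.153 and 0.250). The log2 difference was positive in all 10 genes and its median was 0.34, against -0.00031 for all genes. Without imatinib replicate 8, the Tbx3 difference was 0.73 and missed the threshold (edgeR adjusted p = 0.0627), and without nilotinib 30 mg/kg replicate 5, Znrf3 passed it as well (0.69, edgeR adjusted p = 0.0398).

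Axin2, a scaffold of the complex that degrades beta-catenin and a general feedback target of the pathway (chromosome 11, 108920349 to 108950783, plus strand), ranged from 10.6 to 20.1 CPM in control mice with a median of 14.3. The medians of the treated groups lay between 12.0 CPM with L-NAME and 17.8 CPM with ponatinib 3 mg/kg. Its spread was wider under several treatments than in control mice, from 6.55 to 35.2 CPM with imatinib and from 3.69 to 21.8 with nilotinib 10 mg/kg. The log2 changes against control lay between -0.30 and 0.18, each with an SE of 0.29, and none passed the test.

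Lgr5, a receptor for R-spondins that marks the innermost pericentral hepatocytes (chromosome 10, 115450311 to 115587780, minus strand), ranged from 8.20 to 21.4 CPM in control mice with a median of 12.7. Treated medians lay between 9.84 CPM with nilotinib 10 mg/kg and 14.8 with imatinib. Znrf3 (chromosome 11, 5276324 to 5444847, minus strand) is the paralogue of Rnf43 with the same role. It ranged from 10.2 to 22.1 CPM in control mice (median 18.0), and the lowest treated median was 12.1 CPM with nilotinib 30 mg/kg (8.73 to 24.3), followed by L-NAME at 13.3 (7.49 to 22.0) and ponatinib 10 mg/kg at 13.8 (9.19 to 20.9). The log2 changes of Znrf3 in these 3 groups were -0.34, -0.32 and -0.30 (edgeR adjusted p = 0.381, 0.343 and 0.372). Neither gene passed the test in any group.

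Slc1a2, a glutamate transporter of the cell membrane (chromosome 2, 102658659 to 102790784, plus strand), ranged from 172 to 301 CPM in control mice with a median of 212. It was 229 to 307 CPM with ponatinib 3 mg/kg (median 268) and 124 to 281 with nilotinib 30 mg/kg (median 176), the highest and the lowest median. The log2 changes were 0.24 and -0.29, neither past the test (edgeR adjusted p = 0.653 and 0.338). Of the mice given ponatinib 10 mg/kg, 7 lay at or below 253 CPM and replicate 2 reached 404.

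Rhbg encodes an ammonium transporter of pericentral hepatocytes (chromosome 3, 88242874 to 88254709, minus strand). It was the least abundant per library, from 1.57 to 5.46 CPM in control mice (median 3.81). With ponatinib 10 mg/kg it ranged from 0 to 3.40 CPM with a median of 1.01, and all 8 mice lay below the control median. The log2 change was -1.23 (SE 0.58, 95% interval -2.39 to -0.09) and did not pass the test (edgeR adjusted p = 0.155). Rhbg shares 1190 of its 1937 exonic bases with the gene Gm38392 on the same strand, so that its counts hold only reads that could be assigned to 1 of the 2 genes and its level is uncertain.

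Cyp2e1, a cytochrome P450 that oxidises ethanol, paracetamol and other small molecules (chromosome 7, 140763739 to 140774987, plus strand), was the most abundant of the 10. Control mice ranged from 4047 to 10983 CPM with a median of 7009, the lowest of the 7 groups. With imatinib the range was 7807 to 10746 CPM with a median of 9245, and all 8 mice lay above the control median. The log2 change was 0.37 (SE 0.17, 95% interval 0.03 to 0.70) and did not pass the test (edgeR adjusted p = 0.167). With ponatinib 3 mg/kg it ranged from 7234 to 9962 CPM (median 8480), also in all 8 mice above the control median, with a log2 change of 0.28 (edgeR adjusted p = 0.612). With nilotinib 30 mg/kg the log2 change was near zero, with a 95% interval from -0.34 to 0.33.

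Doses of 1 drug and the drugs at their highest dose were then compared with each other. Between nilotinib 30 and 10 mg/kg, 0 of the 10 genes were called and 0% of all tested genes, and 0 had an unadjusted p below 0.01 where 1.32% of all genes had. Znrf3 had the largest difference, -0.46 on the log2 scale, with a 95% interval from -0.86 to -0.05 (edgeR adjusted p = 0.818). Between ponatinib 10 and 3 mg/kg, 0 of 10 were called against 1.39% of all genes, and 0 of 10 had an unadjusted p below 0.01 against 5.78%. All 10 genes were lower at the higher dose of ponatinib, with a median log2 difference of -0.36 against 0.01 for all genes, and those with a 95% interval below 0 were Oat, at -0.45 (edgeR adjusted p = 0.268), and Znrf3, at -0.42 (edgeR adjusted p = 0.327).

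Ponatinib and nilotinib share 1 nominal dose, 10 mg/kg once daily. The study calculated a higher plasma exposure for nilotinib than for ponatinib at this dose. None of the 10 genes was called there, beside 2.06% of all genes, and 0 had an unadjusted p below 0.01 beside 6.73%. Rhbg differed by -1.27 (95% interval -2.43 to -0.12) and Znrf3 by -0.41 (95% interval -0.81 to -0.00498), with edgeR adjusted p of 0.264 and 0.318. The other intervals at this dose included 0. For Glul the interval ran from -0.09 to 0.37, for Tbx3 from -0.44 to 0.49 and for Rnf43 from -0.35 to 0.42, so differences of these sizes cannot be set aside.

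At doses that differ, ponatinib 10 mg/kg was set against imatinib and against nilotinib 30 mg/kg. Against imatinib 0 of 10 were called, beside 1.08% of all genes, and all 10 genes were lower with ponatinib, with a median log2 difference of -0.38 against 0.02 for all genes. Oat, at -0.53, and Rhbg, at -1.71, had an unadjusted p below 0.01, as 4.09% of all genes had, and edgeR adjusted p of 0.236 and 0.167. Without ponatinib 10 mg/kg replicate 2, Oat was called in this comparison. Against nilotinib 30 mg/kg 0 of 10 were called, beside 1.88% of all genes, and 0 had an unadjusted p below 0.01, beside 5.64%. There Rnf43 was at 0.42 and Slc1a2 at 0.35, while Oat was at -0.40 and Rhbg at -1.41 (edgeR adjusted p from 0.227 to 0.353). In both comparisons the groups overlapped for all 10 genes, and they did not overlap for 0.245% and 0.265% of all tested genes.

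Variation between mice of the same group was used to see which of the 10 genes moved together, independently of treatment. Group means were subtracted from log2 CPM and all 45 pairs were correlated over the 56 mice, with permutation p-values from 100000 resamples within groups. After Benjamini-Hochberg adjustment over the 45 pairs, 13 pairs were past 0.05 and all 13 were positive. After the share of reads outside genes was also removed, 11 were left, all positive. The genes of a pair share the library, its depth and its scaling. The share of pairs past 0.05 among all tested genes was not determined. The count was therefore not read as particular to the 10 genes.

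**Figure D3:**
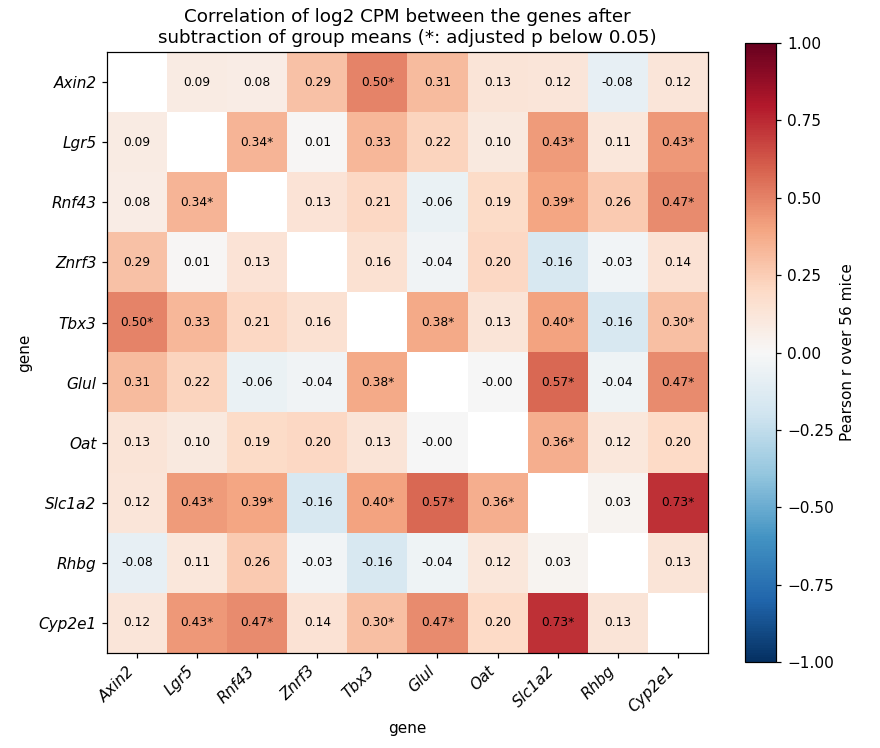
Pearson's r between the 10 genes over 56 mice, after the group mean of log2 CPM was subtracted. Stars mark an adjusted permutation p below 0.05, and the highest r, 0.73, joins Slc1a2 and Cyp2e1, while Rhbg and Znrf3 have no starred pair.

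The strongest pair was Slc1a2 and Cyp2e1, with r = 0.73 and rho = 0.72 (adjusted permutation p = 0.000225 and 0.00045), and r was 0.77 once the 2 mice most distant in Slc1a2 were left out. Glul and Slc1a2 had r = 0.57 and rho = 0.51 (adjusted permutation p = 0.000225 and 0.00135), and r was 0.53 with the 2 most distant mice left out. Glul and Cyp2e1 had r = 0.47 and rho = 0.42 (adjusted permutation p = 0.00225 and 0.00832), with r at 0.41 after the same step. The transporter of glutamate, the P450 and glutamine synthetase therefore shared part of their variation among mice. Among the pathway genes, Axin2 and Tbx3 had r = 0.50 and rho = 0.47 (adjusted permutation p = 0.00522 and 0.00457). Rnf43 and Cyp2e1 had r = 0.47 and rho = 0.54 (adjusted permutation p = 0.00522 and 0.0009).

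Lgr5 was also past the threshold by r with Cyp2e1 (r = 0.43), Slc1a2 (r = 0.43) and Rnf43 (r = 0.34). So were Tbx3 with Slc1a2 (r = 0.40), Glul (r = 0.38) and Cyp2e1 (r = 0.30), and Rnf43 with Slc1a2 (r = 0.39). By rho, Tbx3 was not past it with Glul or with Cyp2e1. Several further pairs were not past the threshold by either measure. Rnf43 and its paralogue Znrf3 had r = 0.13 and rho = 0.16 (adjusted permutation p = 0.547 and 0.445). Axin2 and Lgr5 had r = 0.09 and rho = 0.17 (adjusted permutation p = 0.710 and 0.412), and Glul and Oat, the 2 enzymes of glutamine and ornithine metabolism, had r = -0.00325 and rho = -0.05 (adjusted permutation p = 0.980 and 0.769). Oat had 1 pair past the threshold by r, with Slc1a2 (r = 0.36, adjusted permutation p = 0.0437, and rho = 0.26, adjusted permutation p = 0.174), and this r was 0.21 with the 2 mice most distant in Oat left out.

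Promoter sequence is shown for Slc1a2, Cyp2e1 and Glul, which were all correlated with each other, because the pathway acts on DNA through TCF and LEF factors. The RefSeq table (GRCm38.p6) holds the promoters of 6 of the 10 genes, and no promoter was matched for Lgr5, Tbx3, Znrf3 and Rhbg. The letters CTTTGA, a short core that these factors bind, were searched on both strands of the 250 bases before each annotated start, and matches are in capitals below, 5′ to 3′ on the strand of the gene. The stretch of Slc1a2 (chr2:102706188-102706437, plus strand) belongs to a start 47779 bases inside the gene as given above, not to the gene's first start, and it holds a match on each strand, at -206 and -77 from that inner start. Cyp2e1 (chr7:140763569-140763818, plus strand) holds 1, at -135. Glul (chr1:153899679-153899928, plus strand) holds 0.
Slc1a2: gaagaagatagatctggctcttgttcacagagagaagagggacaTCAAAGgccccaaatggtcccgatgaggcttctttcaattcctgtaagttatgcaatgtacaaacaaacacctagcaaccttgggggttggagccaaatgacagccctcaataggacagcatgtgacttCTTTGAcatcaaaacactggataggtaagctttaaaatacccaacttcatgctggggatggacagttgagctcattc
Cyp2e1: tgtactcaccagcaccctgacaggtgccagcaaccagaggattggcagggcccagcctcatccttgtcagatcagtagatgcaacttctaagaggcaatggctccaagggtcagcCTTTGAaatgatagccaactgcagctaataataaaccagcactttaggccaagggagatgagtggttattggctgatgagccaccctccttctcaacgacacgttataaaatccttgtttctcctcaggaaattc
Glul: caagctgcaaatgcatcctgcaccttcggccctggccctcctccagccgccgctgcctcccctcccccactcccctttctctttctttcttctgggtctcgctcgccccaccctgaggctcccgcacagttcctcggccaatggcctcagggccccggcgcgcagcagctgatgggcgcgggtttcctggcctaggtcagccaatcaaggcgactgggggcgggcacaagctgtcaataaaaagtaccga
The other promoters searched, of Axin2, Oat and Rnf43, hold no match. Of all 32851 promoters in the table, 13.8% hold these letters on either strand. A match describes the letters only and says nothing of whether a factor binds there.

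The genes most like Glul and Axin2 over the 56 mice were looked for among the other 14304 tested genes, as a description. For Glul they were Glns-ps1, its pseudogene, with r = 0.77, then Paqr9 with 0.69, Serpina3k with 0.68, Plg with 0.65 and Chp1 with 0.64. The median r of all genes with Glul was -0.01. Glns-ps1 had a median of 92.6 CPM, and since its sequence derives from that of Glul, the assignment of reads between the 2 is uncertain. For Axin2 the most alike were 1700020I14Rik and Camk1d, both with r = 0.61, then Aqp8 with 0.58, Ptgr2 with 0.57 and Plin2 with 0.56, where the median of all genes was 0.00558.

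The other genes of the Wnt pathway were taken from a list of 46, of which 42 were tested. Of these, 3 were called higher and 3 lower with imatinib, beside 5.69% higher and 4.58% lower of all tested genes. It was 0 higher and 1 lower at the low dose of nilotinib (0.468% and 0.943% of all genes), 0 and 2 at its high dose (2.34% and 3.43%) and 0 and 0 at the low dose of ponatinib (0% and 0.0419%). The high dose of ponatinib gave 1 higher and 5 lower (7.24% and 5.87% of all genes), and L-NAME 1 higher and 4 lower (5.55% and 6.24%). No share of this list was read as different from that of all genes. Ctnnb1, which encodes beta-catenin itself, fell by 0.47 with imatinib, 0.49 with ponatinib 10 mg/kg, 0.40 with nilotinib 30 mg/kg and 0.52 with L-NAME on the log2 scale (edgeR adjusted p = 0.00434, 0.00193, 0.0205 and 0.00118). With the share of reads outside genes as a covariate only the call with imatinib was left.

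Other called members of the pathway list were cytoplasmic, nuclear and membrane parts. Dvl1, which relays the signal from the receptor, rose by 0.44 with imatinib, 0.68 with ponatinib 10 mg/kg and 0.52 with L-NAME (edgeR adjusted p = 0.0126, 0.000101 and 0.00232). Its relative Dvl3 had a log2 change of -0.71 with imatinib and -1.03 with nilotinib 10 mg/kg (edgeR adjusted p = 0.0427 and 0.0167). Bcl9l, a co-activator of beta-catenin, fell by 0.54 with nilotinib 30 mg/kg, 0.74 with ponatinib 10 mg/kg and 0.44 with L-NAME (edgeR adjusted p = 0.0167, 0.000496 and 0.0395). The co-receptor Lrp5 fell by 0.82 with ponatinib 10 mg/kg and 0.92 with L-NAME (edgeR adjusted p = 0.0257 and 0.0124). The kinase Csnk1a1 fell by 0.33 with ponatinib 10 mg/kg and by 0.31 with L-NAME (edgeR adjusted p = 0.0197 and 0.0302). With the covariate none of the calls of Dvl1, Dvl3, Lrp5 and Csnk1a1 was left, and of those of Bcl9l the one with ponatinib 10 mg/kg was. How many of all tested genes stay called with the covariate is not given here. The losses, also those of Ctnnb1, were therefore not read as particular to these genes.

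Named after their values were seen, 2 further targets of the pathway, Notum and Sp5, rose with imatinib by 0.47 and 1.43 (edgeR adjusted p = 0.0488 and 0.0301), and Wls, which carries Wnt ligands to the cell surface, fell by 0.94 with imatinib and 0.90 with ponatinib 10 mg/kg (edgeR adjusted p = 0.0415 and 0.0441). Among the ligands of the central vein, Rspo3 was detected in every mouse and had a median of 9.20 CPM in control mice and between 8.07 and 9.66 CPM in treated groups. Wnt2 and Wnt9b were near the lower end of detection and at 0 in some mice. Wnt2 had medians between 1.63 and 6.04 CPM and Wnt9b between 0.725 and 1.86 CPM over the 7 groups. None of these 3 ligands was called in any group.

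**Figure D4:**
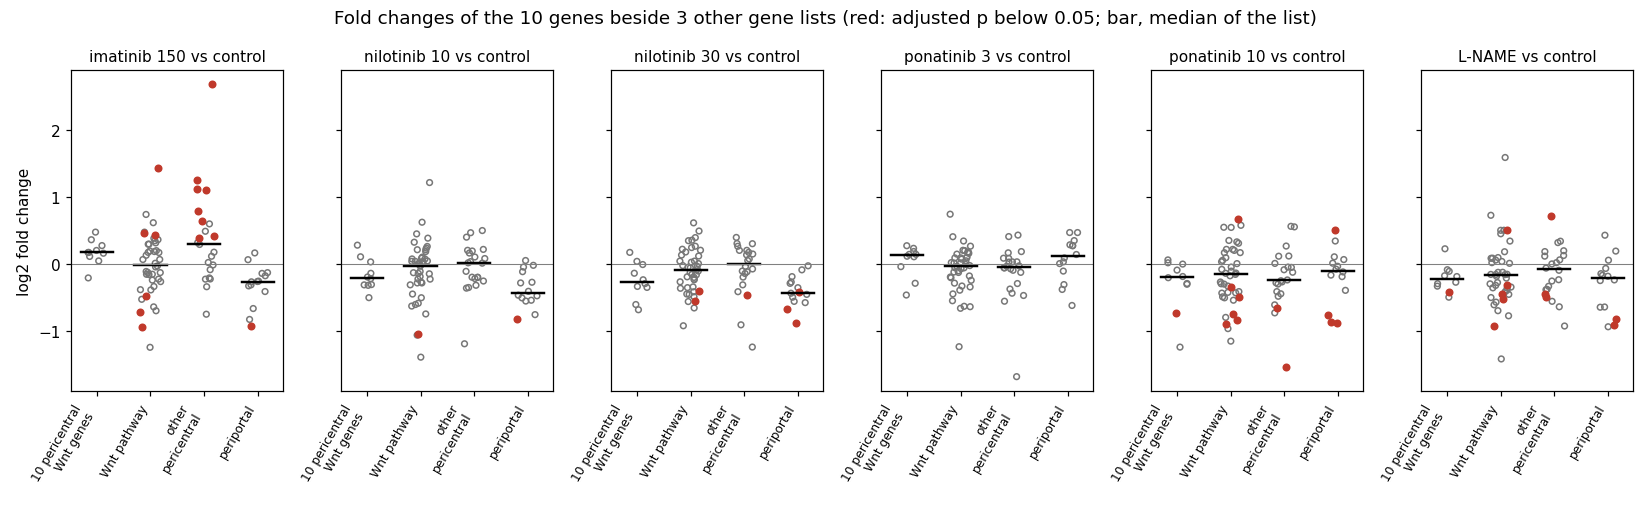
Log2 fold change against control of each tested gene (points) of the 10 pericentral Wnt genes, of 42 other Wnt pathway genes, of 22 other pericentral genes and of 14 periportal genes, in the 6 treated groups; bars are list medians and red points have an adjusted p below 0.05. With imatinib the other pericentral genes rise up to Cyp1a2 at 2.68, while the 10 Wnt genes lie between -0.20 and 0.48.

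Pericentral genes outside the 10 differed most with imatinib. Of 22 on this list, all tested, 8 were called higher and 0 lower with imatinib, beside 5.69% higher and 4.58% lower of all tested genes, and the median log2 change was 0.31 against -0.02 for all genes. Cyp1a2, a P450 induced through the aryl hydrocarbon receptor, rose by 2.68 (edgeR adjusted p = 2.04e-18). Cyp2c37, Cyp2c50 and Cyp2c29, P450s of drug metabolism, rose by 1.11, 0.79 and 0.65 (edgeR adjusted p = 0.00073, 3.22e-05 and 0.0074). Nr1i3, the nuclear receptor CAR, rose by 1.13 (edgeR adjusted p = 0.000685) and with L-NAME by 0.72 (edgeR adjusted p = 0.0247). Aldh1a1, a retinal dehydrogenase, fell by 0.65 with ponatinib 10 mg/kg and by 0.49 with L-NAME (edgeR adjusted p = 0.002 and 0.0215). On this list 0 genes were called with nilotinib 10 mg/kg or ponatinib 3 mg/kg, 1 lower with nilotinib 30 mg/kg (3.43% of all genes), 2 lower with ponatinib 10 mg/kg (5.87%), and 1 higher and 2 lower with L-NAME (5.55% and 6.24%).

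Among 14 periportal genes, at the other end of the lobule, Cps1, the first enzyme of the urea cycle, fell in each treated group but ponatinib 3 mg/kg, by 0.92 with imatinib, 0.86 with ponatinib 10 mg/kg, 0.81 and 0.87 with nilotinib 10 and 30 mg/kg and 0.90 with L-NAME (edgeR adjusted p = 0.00338, 0.00421, 0.0379, 0.00826 and 0.00311). Cyp2f2, the P450 that marks periportal hepatocytes, fell by 0.76 with ponatinib 10 mg/kg and 0.81 with L-NAME (edgeR adjusted p = 0.000379 and 0.000198). Gls2, the glutaminase of the liver, fell by 0.67 and Arg1, the arginase, by 0.41 with nilotinib 30 mg/kg (edgeR adjusted p = 0.0171 and 0.0309). Asl rose by 0.51 and Cdh1 fell by 0.87 with ponatinib 10 mg/kg (edgeR adjusted p = 0.0231 and 0.0270). In all, 1 of 14 was called lower with imatinib, beside 4.58% of all genes, and 1 with nilotinib 10 mg/kg, beside 0.943%. Nilotinib 30 mg/kg gave 3 lower (3.43% of all genes), ponatinib 3 mg/kg 0 (0.0419%), ponatinib 10 mg/kg 1 higher and 3 lower (7.24% and 5.87%) and L-NAME 2 lower (6.24%). All 6 comparisons share the same 8 control mice. Low-dose ponatinib was also the treated group nearest to control in mean share of reads outside genes, at 8.53% against 7.97%. The other treated groups had 9.75% to 11.0%. With this share as a covariate, results for the called periportal and other pericentral genes are not given here. Their calls were therefore not read as firmer than those of the pathway list.

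The hepatocyte markers were abundant throughout, at 63242 to 136745 CPM summed over 6 genes, with 0 of 6 at 0 in any mouse. Of the 6, 4 were called higher with ponatinib 10 mg/kg, namely Apoh, Trf, Ttr and Serpina1c, beside 7.24% of all genes. It was 3 with L-NAME (5.55%), 2 with imatinib (5.69%) and 1 with nilotinib 30 mg/kg (2.34%). In each treated group 0 of the 6 were called lower, where 0.0419% to 6.24% of all genes were. The median log2 change was 0.62 with ponatinib 10 mg/kg and 0.41 with L-NAME, the groups of the Oat and Glul calls. It was 0.33 with imatinib, 0.27 and 0.34 with nilotinib 10 and 30 mg/kg and 0.36 with ponatinib 3 mg/kg. For all genes it lay between -0.02 and 0.03. The summed level, which the most abundant markers dominate, had a median of 100493 CPM in control mice. It was higher with ponatinib 3 and 10 mg/kg, at 123996 and 119258 CPM. It was lower with imatinib (98331), nilotinib 10 and 30 mg/kg (96606 and 83363) and L-NAME (87462), although the median log2 change of the 6 markers was positive there. The summed level of 6 Kupffer cell markers ranged from 650 to 1319 CPM in control mice, from 345 to 762 with imatinib, from 346 to 1960 with ponatinib 10 mg/kg and from 635 to 1511 with L-NAME. Of these 6, Adgre1 and Cd5l were called lower with imatinib (4.58% of all genes). Clec4f and Marco were called higher with ponatinib 10 mg/kg (7.24%), and Clec4f with nilotinib 30 mg/kg (2.34%) and L-NAME (5.55%). The summed level of 8 endothelial markers ranged from 168 to 570 CPM in control mice and from 280 to 495 with L-NAME. For 7 markers of central vein endothelium the summed level was 27.3 to 55.2 CPM in control mice and 18.9 to 44.9 with L-NAME. It was 13.2 to 47.6 with ponatinib 10 mg/kg and 29.4 to 55.7 with nilotinib 30 mg/kg. Its median was 46.0 CPM in control mice, 44.4 with nilotinib 30 mg/kg and 30.1 with nilotinib 10 mg/kg. With imatinib it was 28.4, with ponatinib 3 and 10 mg/kg 33.7 and 28.5, and with L-NAME 28.1. The median log2 change of these markers was 0.10 with nilotinib 30 mg/kg and between -0.63 and -0.27 in the other treated groups. In each treated group 0 of the 7 genes were called, where 0.0419% to 13.1% of all genes were. These 7 genes are sparse, and up to 5 of them had 0 reads in some mouse of a group. Leukocyte markers (7 genes) ranged from 26.9 to 55.5 CPM in control mice and from 41.3 to 92.8 with L-NAME. The stellate cell markers (8 genes) were between 201 and 850 CPM and those of cholangiocytes (6 genes) between 56.7 and 257 CPM over all mice. Of the endothelial, leukocyte, stellate and cholangiocyte markers, those called against control were Ptprc and Ecm1. Ptprc was lower with imatinib (4.58% of all genes), and Ecm1 was higher with imatinib (5.69%) and with ponatinib 10 mg/kg (7.24%). The 8 stellate markers as a list went the other way from Ecm1. Their median log2 change was -0.33 with imatinib and -0.33 with ponatinib 10 mg/kg, against -0.02 and -0.01 for all genes. All called markers were named after their values were seen. The part of these cell types in the results on the 10 genes was not tested.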

How the data were processed

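The deposited values are raw counts of reads per gene. Per the labels and the submitters' processing notes, the authors made poly(A) libraries with the NEBNext Ultra kit from liver RNA of 8 mice per group, aligned reads with TopHat2 (2.0.14), Bowtie2 (2.1.0) and SAMtools (0.1.18) to GRCm38, and counted reads with HTSeq (0.6.1p1). Reads with more than 1 alignment were counted on no gene. The 45513 genes are listed by Ensembl identifier, and 44585 had a symbol in GENCODE vM21. Rows for reads outside genes were left out of library sizes and tests and amount to between 7.55% and 16.8% of uniquely aligned reads.

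Counts were fitted with edgeR (4.0.16, R 4.3.3), with TMM scaling, the filterByExpr filter by group, a quasi-likelihood test and 1 fit of all 56 mice. Alternatives were DESeq2 (1.42.0), limma voom (3.58.1), other scalings, filters and call rules, only the 2 groups compared, the share of reads outside genes as a covariate, and each mouse left out in turn. Correlations used log2(CPM + 0.5).

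The 10 genes and the gene lists were chosen with earlier results of these data known. All 10 genes are named. From the pathway, other pericentral and periportal lists, called genes are named, at most 6 a list by smallest p, and the 5 genes most correlated with Glul and with Axin2. No gene of the 10 failed the filter, so no separate test of low genes was made. Replicate numbers only name mice. The labels give each library as a separate liver sample. 95% intervals are for the log2 difference between 2 groups, computed from the spread between mice as edgeR estimates it. They do not give the range of single mice.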

Additional observations from a re-analysis of the deposited data

Results flagged for a closer look

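Each gene was checked in each group of 8 mice for a single mouse far from the other 7, by the gap to its nearest neighbour as a share of the group's range, against Dixon's 95% critical value. Of 70 checks 6 were past it, and chance marks about 1 in 20. Mouse 2 of the ponatinib 10 mg/kg group stood out for 2 genes, with 2046 CPM of Oat and 404 CPM of Slc1a2, and its level of Glul was 1701 CPM, the highest of that group as well. For Tbx3 the high mice were replicate 3 given nilotinib 30 mg/kg, at 71.6 CPM, and replicate 3 given L-NAME, at 124 CPM. With imatinib, replicate 3 was low for Oat, at 952 CPM, and replicate 7 was high for Slc1a2, at 333 CPM.

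The drug groups differed from each other directly in 2 of the 10 genes. Between imatinib and nilotinib 30 mg/kg the log2 difference was 0.96 for Tbx3 and 0.81 for Rnf43, by edgeR's test of that difference. Against control both genes had a positive log2 change with imatinib, 0.28 and 0.21, and a negative one with nilotinib 30 mg/kg, -0.68 and -0.60, none of the 4 past an adjusted p of 0.05. For Tbx3, 5 of the 8 imatinib mice lay below the control median, and the median was 66.7 CPM against 75.9 in control mice. Imatinib replicates 7 and 8 were the high ones, at 148 and 173 CPM.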

How the results depend on the processing

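The number of the 10 genes called was recomputed under 8 alternatives for each of the 12 comparisons and with each mouse left out. With nilotinib 30 mg/kg against control it went from 0 to 2, Rnf43 and Tbx3, at an unadjusted p below 0.01, under DESeq2's Wald test and with only the 2 groups compared, and between 0 and 2 with 1 mouse left out. It was 1 or 2 without control replicate 1, 2 or 6 or nilotinib 30 mg/kg replicate 1 or 3. For ponatinib 10 mg/kg and for L-NAME against control it went from 1 to 0 with the share of reads outside genes as a covariate, and no single mouse ended either call. Between ponatinib 10 mg/kg and imatinib it was 2, Oat and Rhbg, at an unadjusted p below 0.01, and between 0 and 1 with a mouse left out. Between imatinib and nilotinib 30 mg/kg it was 1 to 3 with a mouse left out. The other counts kept their value. The number of correlated pairs went from 13 to 11 once the share outside genes was removed. At the unadjusted p below 0.01 the share of all tested genes was 9.35% with nilotinib 30 mg/kg against control. It was 4.09% between ponatinib 10 mg/kg and imatinib. For the other alternatives the share of all genes is not given here, so no shift was read as particular to the 10 genes. The cause of these shifts was not tested.

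Of 28 single values of the 10 genes and 35 of the other named genes, each under all alternatives, 1331 of 1449 recomputed values kept their call, 106 lost it, 12 gained it and 0 changed sign. Of the 92 remaining values of the 10 genes, 30 changed sign under some alternative, each with a log2 change of at most 0.30 in size. Read numbers limit Rhbg, which had 0 reads in some mouse. No paired analysis was possible because the replicate numbers only follow the order of the libraries within a group and tie no mouse to a litter, batch or day shared with another group.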
